A study of Mus musculus with 2 samples.

Results

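Readthrough transcripts that join the exons of 2 neighbouring protein-coding genes were described in long-read RNA sequencing of the mouse cerebral cortex. Members were spliced transcript models whose exon structure is not annotated, counted in the class NIC (annotated splice sites in another combination) or NNC (at least 1 splice site outside the annotation). Their exons overlapped, by at least 1 base, exons of annotated transcripts of 2 or more coding genes on the same strand whose gene bodies do not overlap each other. Models of the 2 libraries that share every intron position on the same strand were counted as 1 structure, called a chain. By this rule 776 of 73164 NIC and NNC chains were readthrough chains (1.06%, Wilson 95% interval 0.989 to 1.14%), out of 143049 spliced chains of all classes. Gene bodies were those of annotated transcripts. With the authors' gene rows, which their joined models extend over the neighbour, 229 pairs were left and 14 of the 23 pairs chosen by the naming rule had 0 reads, among them both Tmem181a pairs, Cx3cl1-Ccl17 and Zfr2-Matk. The chains joined 442 gene pairs made of 860 genes, and 12 chains overlapped 3 or more non-overlapping genes.

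The data came from 1 group of 2 libraries, replicate 1 and replicate 2. Total RNA was taken from the left cerebral cortex of female mice of the hybrid strain B6CASTF1/J (C57BL/6J by CAST/EiJ) at 14 days of age. Each library used 2 µg of RNA with ERCC and SIRV spike-ins, and no treatment, second tissue, sex or age stands beside them. The labels call the libraries biological replicates, but the text for replicate 1 may describe pooled females and both carry 1 donor entry for the strain, so p-values here compare these libraries, not conditions, and rest on counting error. The libraries held 1072344 and 753520 mouse reads. Cortical neuron genes were present, with Slc17a7, the vesicular glutamate transporter, at 1244 and 1113 reads per 1000000 mouse reads (RPM) in replicates 1 and 2 and Gad1, a GABA-synthesising enzyme, at 273 and 220, while the cerebellar markers Pcp2 and Cbln3 had 0 reads, which allows up to 3 reads in each library. The choroid plexus gene Ttr stood at 25.2 RPM in replicate 1 and 256 RPM in replicate 2, and the myelin gene Mbp at 3673 and 2142 RPM.

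Readthrough transcription arises when RNA polymerase passes the end of a gene without release of the transcript and continues into the next gene on the same strand. The joined transcript can be spliced from a donor site of the upstream gene to an acceptor site of the downstream gene, and its terminal exon and first exon, which have no donor and no acceptor of their own, are then commonly skipped. Such transcripts are also called tandem chimeras or conjoined genes, and some are annotated as loci in their own right. Some can encode a fusion of both proteins where the reading frame is kept, while others change the end or the untranslated regions of the upstream message.

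The sequences at 8 joins are shown as examples, from a shared dynein light chain exon to in-frame coding joins and joins beyond a stop codon. The chains printed had 45 and 26 reads in replicates 1 and 2 for Tmem181a-Dynlt1c, 22 and 21 for Tmem181a-Dynlt1b and 11 and 10 for Cx3cl1-Ccl17. Gm3252-Gm3264 had 6 and 3 on the printed chain, Sys1-Dbndd2 4 and 2 and Zfr2-Matk 1 and 3. Tmem189-Ube2v1 had 1 and 2, and Naa60-Cluap1 had 0 and 3. Each sequence was read from annotated GENCODE M21 transcripts (mm10), not from the reads, and runs 5′ to 3′, with the end of the upstream gene's exon in lower case and the start of the downstream gene's exon in capitals. The joining introns lie at chr17:6257075-6603486, chr17:6257075-6431879, chr8:94772335-94811185, chr10:81250735-81258479, chr2:164472323-164488241, chr16:3902126-3911450 and chr14:4726854-4871120 on the plus strand, and for Tmem189-Ube2v1 at chr2:167617978-167654607 on the minus strand. Coding joins show 30 bases of each exon and joins with untranslated sequence show 15.
Tmem181a-Dynlt1c: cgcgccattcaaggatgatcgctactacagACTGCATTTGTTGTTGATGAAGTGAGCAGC
Tmem181a-Dynlt1b: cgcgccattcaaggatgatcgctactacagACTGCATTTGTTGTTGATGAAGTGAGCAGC
Cx3cl1-Ccl17: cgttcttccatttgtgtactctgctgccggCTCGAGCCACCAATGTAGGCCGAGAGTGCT
Zfr2-Matk: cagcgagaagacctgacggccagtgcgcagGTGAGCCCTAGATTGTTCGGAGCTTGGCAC
Sys1-Dbndd2: gatcatccagatgagGGGCTGACATGGACC
Naa60-Cluap1: actggtcatcaacagATTTCACCGAGATGA
Gm3252-Gm3264: gcctgggaggaaatgGGTCTGCTAGAAATA
Tmem189-Ube2v1: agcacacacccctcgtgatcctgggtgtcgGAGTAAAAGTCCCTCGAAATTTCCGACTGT

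The first 2 sequences are identical, since exon 2 of Dynlt1b and exon 2 of Dynlt1c begin with the same 30 bases, which annotated transcripts of Dynlt1a, Dynlt1f and Dynlt1-ps1 hold as well. The 30 bases of Tmem181a exon 1 were found in no other gene's annotated transcripts. At the Gm3252-Gm3264 join the capitals open a 30-base stretch that recurs in 93 other genes, among them the upstream gene Gm3252 itself. Of the 335 chains with an annotated exon end on both sides of the join, 67 (20.0%, interval 16.1 to 24.6%) in 46 pairs had 30 bases on at least 1 side that recur exactly in another gene, and these chains held 229 of the 601 reads (38.1%). Counting chains with only 1 annotated side as well, 85 chains with 248 reads did. For those chains the read's true copy is uncertain. The limit touches every read of the Tmem181a pairs, Gm3252-Gm3264, Tmem189-Ube2v1, Otud5-Pim2, Gm6710-Gm2026 and Gprasp1-Gprasp2, 5 of the 6 reads of Coro7-Pam16 and 1 of the 3 of Synj2bp-Cox16.

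Readthrough chains took 669 of 1072344 mouse reads in replicate 1, a share of 0.0624% (interval 0.0578 to 0.0673%), and 509 of 753520 in replicate 2, a share of 0.0675% (0.0619 to 0.0737%). The mean was 0.0650 ± 0.00365% (SD, n = 2), and the log2 ratio of replicate 1 over replicate 2 was -0.11 (two-sided Fisher's exact p = 0.183). Of NIC and NNC reads they took 0.632% and 0.706%. Replicate 1 held 464 of the chains over 314 pairs and replicate 2 held 391 chains over 263 pairs. The difference between the libraries was within counting error. Most chains were rare. A single read backed 657 chains, 119 chains had 2 or more reads over both libraries, 23 had 5 or more and 6 had 10 or more. By pair, 268 of 442 had 1 read and 20 had 10 or more, and the 10 leading pairs held 286 of 1178 reads (24.3%).

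The highest level belonged to a join of Tmem181a, which encodes a transmembrane protein, to genes of the Tctex-type dynein light chain, a subunit of the cytoplasmic motor that carries cargo along microtubules. Tmem181a-Dynlt1c had 53 reads in replicate 1 and 31 in replicate 2, a level of 45.3 ± 5.86 RPM (SD, n = 2). Tmem181a-Dynlt1b had 27 and 25 reads, a level of 29.2 ± 5.66 RPM. Both ran from the donor of Tmem181a exon 1 to exon 2 of a Dynlt1 copy, over introns of 346412 and 174805 bases, and both were out of frame. Together they took 80 of the 152 reads of Tmem181a in replicate 1 (52.6%, interval 44.7 to 60.4%) and 56 of 100 in replicate 2 (56.0%, 46.2 to 65.3%). Joined reads were thus about as many as the reads of all its other models, with 80 against 72 in replicate 1 and 56 against 44 in replicate 2. The gene bodies lie 293356 bases apart for Dynlt1c and 121797 for Dynlt1b, and Dynlt1b sits between Tmem181a and Dynlt1c. These were also 2 of the 3 longest distances among pairs with 2 or more reads in each library. A second Tmem181a-Dynlt1c chain, with 8 and 5 reads, overlapped exons of 3 coding genes and passed through 1 linker exon.

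**Figure D1:**
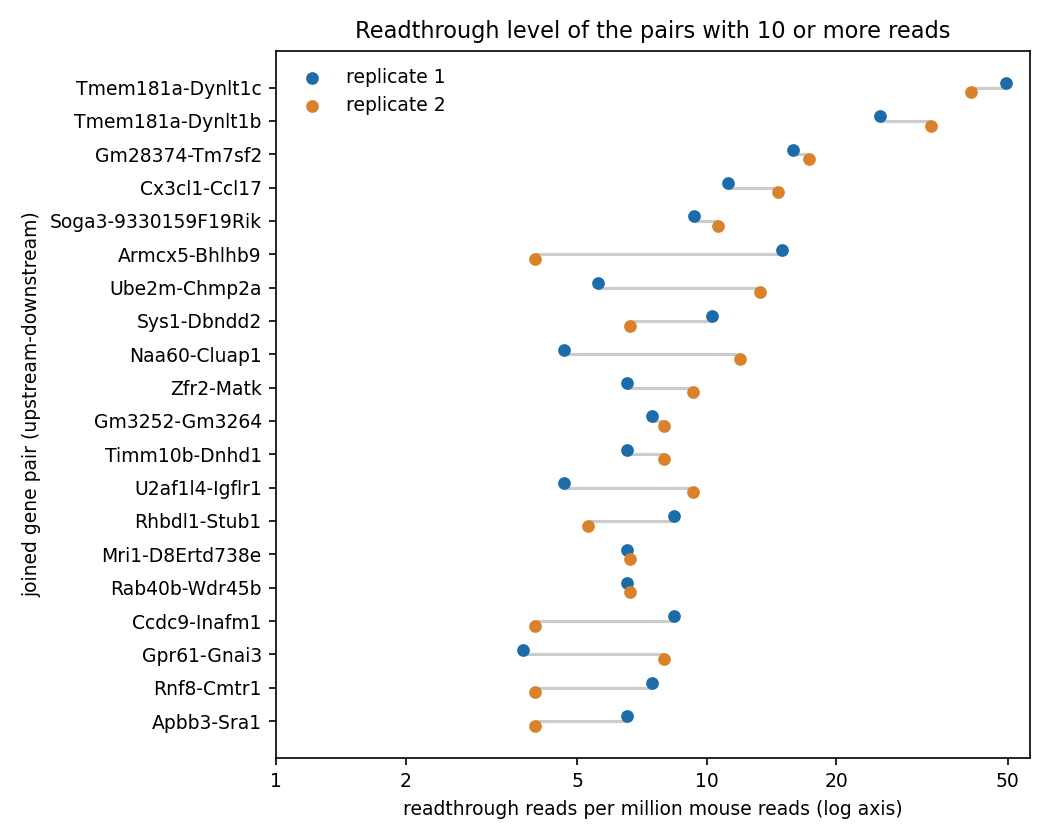
Readthrough level of the 20 pairs with 10 or more reads, in RPM on a log axis, with 1 point per library (blue replicate 1, orange replicate 2) and a line between them. The 2 Tmem181a pairs stand above all others in both libraries, and Armcx5-Bhlhb9, with 16 and 3 reads, has the widest gap between its points.

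Cx3cl1, the neuronal chemokine fractalkine that signals to the microglial receptor Cx3cr1, was joined to the neighbouring chemokine gene Ccl17, a ligand of the receptor Ccr4. This pair had 12 reads in replicate 1 and 11 in replicate 2, a level of 12.9 ± 2.41 RPM. The joining intron of 38851 bases ran from Cx3cl1 exon 1 to Ccl17 exon 2, coding to coding and in frame. Cx3cl1 itself had 978 and 624 other reads, so the joined form was 1.21% and 1.73% of its reads. Other reads are those the authors gave a gene, less its readthrough chains. Reads over a gene that they gave to another gene are not counted. Ccl17 had 2 and 0 other reads, so the joined form was 85.7% of its counted reads in replicate 1 and all of them in replicate 2. In both libraries most reads counted for this chemokine gene thus lay on chains joined to Cx3cl1.

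Ccl17 was 1 of 6 downstream genes, among the 52 pairs with 5 or more reads, for which joined reads outnumbered the gene's other reads in both libraries. Soga3-9330159F19Rik had 10 and 8 readthrough reads, against 1 and 1 other reads of 9330159F19Rik. In 4 of the 6, every chain overlapped an annotated coding gene whose body overlaps both genes of the pair, namely Gm49353 for Soga3-9330159F19Rik, Gm45799 for Timm10b-Dnhd1, Gm49396 for U2af1l4-Igflr1 and Gm48551 for Dohh-Gm48552. Only Cx3cl1-Ccl17 and Srm-Masp2 had no such chain. The pairs Timm10b-Dnhd1, U2af1l4-Igflr1, Dohh-Gm48552 and Srm-Masp2 are named here after their values were seen. Dnhd1, a dynein heavy chain domain gene downstream of the mitochondrial import gene Timm10b, had 7 and 6 joined reads and 0 and 1 other reads. Igflr1, downstream of the splicing factor gene U2af1l4, had 5 and 7 joined reads and 0 other reads in either library. Masp2, a protease of the complement lectin pathway, had 1 and 4 reads joined to Srm, which encodes spermidine synthase, and 0 others. Gm48552 had 4 and 3 reads joined to Dohh, an enzyme that hydroxylates a lysine-derived residue of the translation factor eIF5A, and 1 and 1 others. Of the 6, only Igflr1 and Masp2 had no other read given to them in either library, which allows up to 3 reads in each. Reads that the authors gave to a spanning gene are not in these counts.

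The opposite case, an upstream gene whose counted reads were mostly in joined form in both libraries, held for 6 of the 52 pairs. Gm28374-Tm7sf2 had 17 and 13 readthrough reads, against 1 and 0 other reads of Gm28374. Tm7sf2 encodes a sterol reductase of cholesterol synthesis and had 42 and 29 other reads. All 14 chains of this pair also overlapped Vps51, a coding gene for a vesicle-tethering subunit whose body overlaps both genes and whose annotated transcripts over the pair had 103 and 58 reads. When a chain had to share a splice site with each gene, Gm28374-Tm7sf2 had 0 reads. Gm3252-Gm3264 had 8 and 6 readthrough reads and 0 other reads of Gm3252 in either library. All 5 chains of this pair had exon sequence that recurs in other genes, which for the printed join include Gm3252 itself. The upstream Aldoa record, 1 of 2 gene records with the symbol of the glycolytic aldolase and 38 bases from the second, had 5 and 2 joined reads and 0 others, beside 2525 and 1518 other reads of the downstream record. That pair joins records that share a symbol, and it was the only 1 of the 442 that did.

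**Figure D2:**
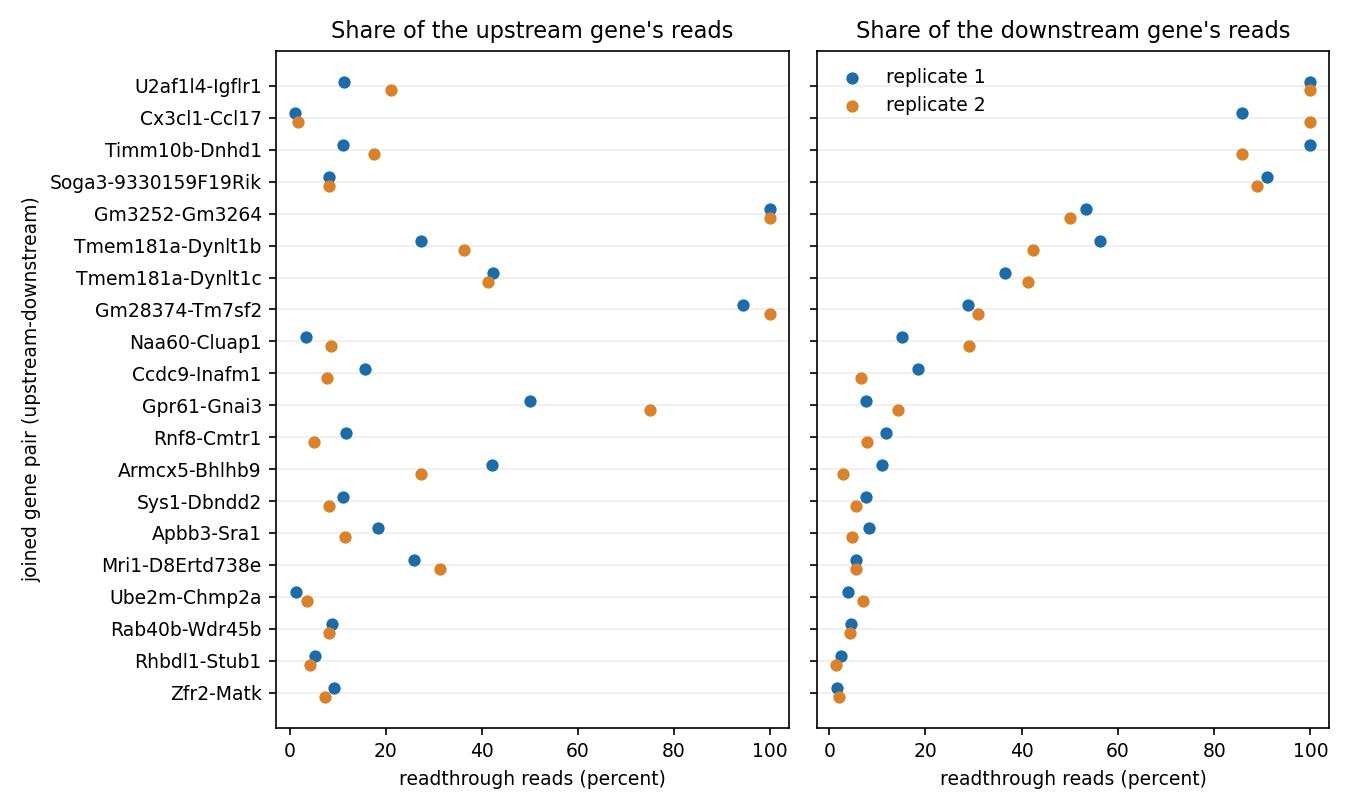
Readthrough reads as a percent of the upstream gene's reads (left) and of the downstream gene's reads (right) for the 20 pairs with 10 or more reads, ordered by the downstream share, with 1 point per library. The downstream genes that lie above 80% in both libraries are Igflr1, Ccl17, Dnhd1 and 9330159F19Rik, and among upstream genes Gm3252 and Gm28374 lie above 90%.

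Several leading pairs were neighbours that the annotation already spans with another gene. An annotated transcript overlapped exons of both genes in 66 of 442 pairs (14.9%, interval 11.9 to 18.6%), which held 279 of 1178 reads (23.7%). By chain, 181 of 776 (23.3%), with 264 of 1178 reads (22.4%), overlapped another coding gene whose body overlaps both, and in 63 pairs every chain did. Without them the readthrough share was 0.0484% of mouse reads in replicate 1 and 0.0524% in replicate 2, an alternative chosen after the data were seen. All chains of Soga3-9330159F19Rik overlapped Gm49353, an annotated gene over both. Sys1, whose protein recruits a small GTPase to the Golgi, was joined to Dbndd2, a dysbindin-domain gene, with 11 and 5 reads, and all 6 chains overlapped Gm20458. Naa60, an N-terminal acetyltransferase of the Golgi, was joined to the intraflagellar transport gene Cluap1 with 5 and 9 reads over 11 chains, all of which overlapped Gm20695. Armcx5 was joined to Bhlhb9, both of the armadillo-repeat family on chromosome X, with 16 and 3 reads, and all 10 chains overlapped Gprasp1, a sorting protein gene for G-protein-coupled receptors whose annotated transcripts over the pair had 11 and 8 reads. The annotated spanning transcripts of Sys1-Dbndd2, Naa60-Cluap1 and Soga3-9330159F19Rik had 0 reads in either library, which allows up to 3 each.

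Other leading pairs had no such bridge and lay close together. Zfr2, a zinc-finger gene, was joined to Matk, a tyrosine kinase related to Csk that is expressed in brain, with 7 reads in each library. Their bodies lie 811 bases apart. The leading chain, with 1 and 3 reads, joined coding exons in frame over an intron of 7745 bases. Zfr2 had 68 and 87 other reads, so the joined form was 9.33% and 7.45% of its reads, while it was 1.67% and 2.08% of the more abundant Matk. Ube2m, the E2 enzyme that conjugates NEDD8, was joined to Chmp2a, a subunit of the ESCRT-III membrane-remodelling complex, with 6 and 10 reads. The leading chain, with 5 and 8 reads, had no intron between the genes: 1 exon ran on through the 312 bases between them. Rhbdl1, a rhomboid-family gene, was joined to Stub1, the ubiquitin ligase CHIP, with 9 and 4 reads over 11 chains and a gap of 1060 bases. Mri1, an enzyme of methionine salvage, was joined to D8Ertd738e across 186 bases with 7 and 5 reads, which made up 25.9% and 31.3% of Mri1 reads.

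A further 4 pairs with 10 or more reads are named after their values were seen. Rab40b, a small GTPase gene, was joined to Wdr45b, which encodes a phosphoinositide-binding autophagy protein, with 7 and 5 reads, or 8.75% and 8.20% of Rab40b reads. Ccdc9 was joined to Inafm1 with 9 and 3 reads across 424 bases. Rnf8, a ubiquitin ligase of the DNA damage response, was joined to Cmtr1, an mRNA cap methyltransferase, with 8 and 3 reads over 4 chains, all of which overlapped Gm28043. Gpr61, an orphan receptor gene, had 4 and 6 reads joined to Gnai3, a G-protein alpha subunit gene, against 4 and 2 other reads of Gpr61. In Rab40b, Rnf8 and Ccdc9 the joined reads were the minority of the upstream gene in both libraries, and in Gpr61 they equalled the other reads in replicate 1 and outnumbered them in replicate 2.

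Same-family neighbours were pairs whose symbols are the same or differ only in their final number or letter. They made up 39 of 442 pairs (8.82%, interval 6.52 to 11.8%) and 86 of 1178 reads (7.30%). Numbered Gm genes were not counted as a family, so pairs such as Gm3252-Gm3264 are not among them. Most same-family pairs had few reads, and their exons can be alike, so placement between them is less certain. Zswim3-Zswim1, zinc-finger genes 555 bases apart, had 8 reads in replicate 1 and 1 in replicate 2. Gprasp1-Gprasp2, of the receptor-sorting family next to Armcx5-Bhlhb9 on chromosome X, had 4 and 0. Tuba1a-Tuba1b, the alpha-tubulin genes, had 1 and 3 reads, beside 5392 and 4168 other reads of Tuba1a. That made the joined form 0.0185% and 0.0719% of the reads of Tuba1a. Zswim3-Zswim1, Gprasp1-Gprasp2 and Tuba1a-Tuba1b were named after their values were seen.

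The median readthrough share of an upstream gene was small. Among 232 pairs with 20 or more upstream reads in each library, it was 1.10% in replicate 1 and 1.11% in replicate 2, with lower quartiles of 0 in both and upper quartiles of 2.58% and 3.23%. These pairs were members, so each had a joined read in at least 1 library, and the values do not describe upstream genes at large. In 5 of these pairs it was over 10% in both libraries. They were the 2 Tmem181a pairs, Timm10b-Dnhd1 (11.1% and 17.6%), U2af1l4-Igflr1 (11.4% and 21.2%) and Apbb3-Sra1 (18.4% and 11.5%), the last named after its values were seen. Every chain of Timm10b-Dnhd1 and of U2af1l4-Igflr1 overlapped an annotated coding gene that spans both genes, so 3 of the 5 had no bridged chain. Among those 3, every chain of both Tmem181a pairs had exon sequence that recurs in other genes.

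The rule asked for the distance between the joined genes, and it was short for most. The gap between the gene bodies had a median of 6075.5 bases over the 442 pairs, with quartiles of 1325 and 20682 and a range of 2 to 411169. Adjacent same-strand coding genes that do not overlap and both have 10 or more reads, called expressed neighbours, had a median gap of 43372.5 bases (n = 6608), and all 21954 adjacent coding neighbours had one of 43759.5. Joined pairs were nearest downstream neighbours in 417 of 442 cases (94.3%). Of the 6608 expressed neighbours 243 were joined (3.68%, interval 3.25 to 4.16%). By gap, 57 of 256 neighbours under 1000 bases apart were joined (22.3%, interval 17.6 to 27.8%), 67 of 719 at 1000 to 5000 bases (9.32%) and 67 of 1319 at 5000 to 20000 bases (5.08%). At 20000 to 100000 bases it was 43 of 2077 (2.07%), and over 100000 bases 9 of 2237 (0.402%, interval 0.212 to 0.763%). The share of neighbours joined was lower at each greater distance. No test was made over pairs, which are not replicates.

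**Figure D3:**
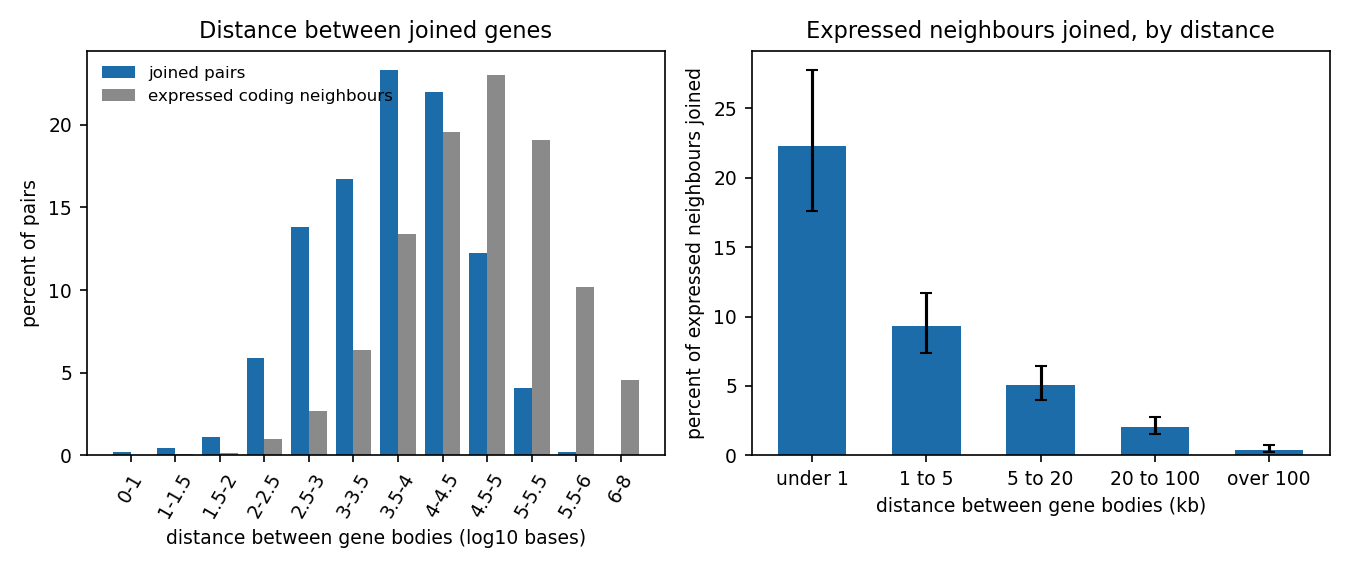
Left, distribution of the distance between gene bodies (log10 bases) for the 442 joined pairs (blue) and the 6608 expressed coding neighbours (grey), in percent of pairs. Right, percent of expressed neighbours joined by a readthrough chain at each distance, with Wilson 95% intervals; it is 22.3% under 1 kb and 0.402% over 100 kb.

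At the short end, the 3 smallest gaps among pairs with 2 or more reads in each library were 19, 31 and 38 bases. Taf6l, a gene for a histone acetyltransferase complex subunit, and Tmem179b, 19 bases downstream, were joined with 2 and 3 reads, beside 6 and 9 other reads of Tmem179b. Fxyd7 and Fxyd5, which encode regulators of the sodium pump, lie 31 bases apart and were joined with 2 and 6 reads. The Aldoa records were the third. The leading chain of each of the 3 ran on in a continuous exon. At the long end, beside the Tmem181a pairs, Gm3252-Gm3264 spanned 108082 bases, and these 3 long pairs all involve exons whose sequence recurs in other genes. Over 100000 bases lay between the genes in 19 pairs, of which 7 had 2 or more reads in all. Among those 7, and named after their values were seen, were Tmeff2-Cavin2 at 101855 bases with 4 and 1 reads and Stk35-Tgm3 at 180061 bases with 1 read in each library. Without the joins of recurring sequence the median gap was 5116.5 bases, an alternative chosen after the data were seen.

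Joined genes spanned the range of expression. The upstream genes had a median of 28.5 RPM outside the readthrough chains (n = 438) and the downstream genes one of 20.2 RPM (n = 441), beside 32.7 RPM for all 10779 coding genes with 10 or more reads. These levels are per read and not per length. Of 438 upstream genes 86 had fewer than 10 reads of their own, as had 139 of 441 downstream genes. Of all 22028 coding genes, 10779 had 10 or more reads. The medians of joined genes include genes under 10 reads and the 32.7 RPM does not, so they are of unlike sets. The hexamer AATAAA, the main poly(A) signal, was sought on the transcript strand in the last 40 bases of the most-read annotated transcript. It was found in 223 of 387 upstream genes with such a transcript (57.6%, interval 52.6 to 62.4%), beside 6181 of 10169 expressed coding genes (60.8%, 59.8 to 61.7%). The variant ATTAAA, without AATAAA, was found in 62 of 387 (16.0%) and 1428 of 10169 (14.0%). The intervals of the 2 AATAAA shares overlap, but the 2 sets have genes in common and no test was made between them.

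The way the genes were joined fell into 3 kinds. In 530 chains (68.3%, interval 64.9 to 71.5%), with 476 reads in replicate 1 and 351 in replicate 2, a single intron linked an exon of the upstream gene directly to an exon of the downstream gene. In 92 chains (11.9%), with 78 and 53 reads, 1 or more linker exons that overlap no annotated exon of either gene stood between them. In 154 chains (19.8%), with 115 and 105 reads, 1 exon ran on from the upstream into the downstream gene. Direct introns held the most reads and linker exons the fewest in both libraries.

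The most frequent direct join skipped the last exon of the upstream gene and the first exon of the downstream gene. It ran from the last-but-one exon to the second exon, in at least 1 annotated transcript of each gene, in 209 of 530 direct chains (39.4%, interval 35.4 to 43.7%) over 147 pairs. With the most-read annotated transcript of each gene alone it was 123 of 530 (23.2%). Both splice sites were annotated in 307 direct chains, of which these 209 were 68.1% (interval 62.7 to 73.0%). The donor was annotated in 352 chains, and in 268 of them (76.1%) it was that of a last-but-one exon. The acceptor was annotated in 426 chains, and in 382 of them (89.7%) it was that of a second exon. Of the 178 donors outside the annotation, 137 (77.0%) lay within a last exon of the upstream gene. Of the 104 such acceptors, 31 (29.8%) lay within a first exon of the downstream gene. Over all 530 direct chains, 382 thus ended at the acceptor of a second exon and 268 began at the donor of a last-but-one exon.

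**Figure D4:**
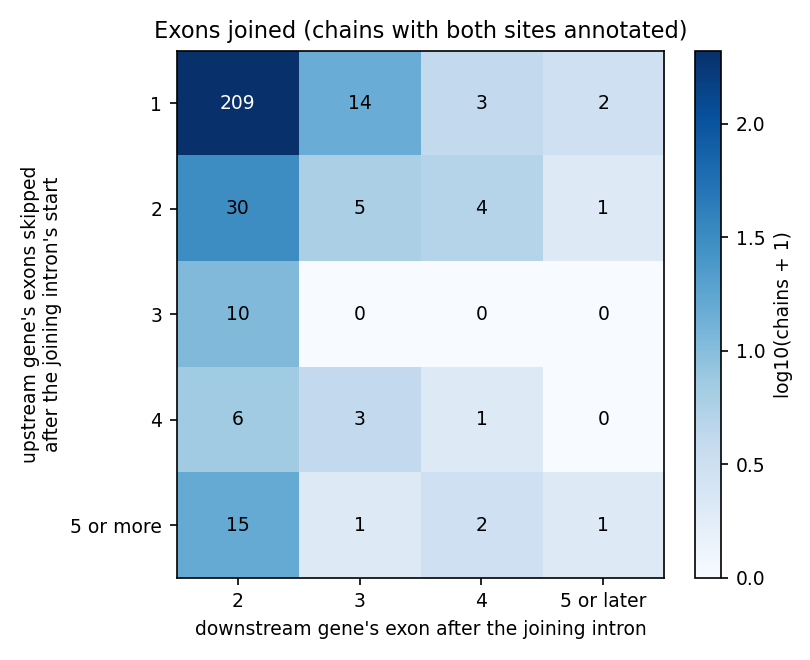
Exons joined in the 307 direct chains with both splice sites annotated, counted by the upstream gene's exons skipped after the start of the joining intron (rows) and by the rank of the downstream gene's exon where it ends (columns), each the smallest over annotated transcripts. The cell for 1 skipped exon and the second exon holds 209 chains, and the next largest, 2 skipped exons and the second exon, holds 30.

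An end was taken as coding where at least 1 annotated transcript made it so. By the place of both ends in the annotated transcripts, 158 of the 307 joins ran from coding sequence to coding sequence (51.5%) and 86 from coding sequence into a 5′ untranslated region (28.0%). A further 23 ran from a 5′ untranslated region to coding sequence, 18 between 5′ untranslated regions, 9 from a 3′ to a 5′ untranslated region, as in the Sys1-Dbndd2 join printed above, and 7 from a 3′ untranslated region to coding sequence, as in the printed Naa60-Cluap1 join. Of the 158 coding joins 72 kept the frame for at least 1 pairing of annotated transcripts of the 2 genes (45.6%, interval 38.0 to 53.3%), over 52 pairs. Other pairings of the same genes' transcripts can be out of frame. The share expected without regard to frame was not computed, so whether frame is kept more often than that was not tested. These in-frame chains held 80 reads in replicate 1 and 55 in replicate 2, and 17 of the pairs had such reads in both libraries. Cx3cl1-Ccl17 led with 11 and 10 in-frame reads from 1 chain, followed by Zfr2-Matk with 6 and 6 over 7 chains. Others with 5 or more in-frame reads, named after their values were seen, were Otud5-Pim2, a deubiquitinase and a serine/threonine kinase, with 5 and 1, and Gm6710-Gm2026 with 2 and 3. Naa60-Cluap1 had 3 and 3 in-frame reads on chains other than the printed one. Rnf8-Cmtr1 had 7 and 2 and Rab40b-Wdr45b had 4 and 4. The frame was read from the annotation alone, and no protein was measured.

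Most readthrough chains ran from near an annotated start of one gene to near an annotated end of the other. The first base lay within 100 bases of an annotated start of the upstream gene in 619 of 776 chains (79.8%) and the last base within 100 bases of an annotated end of the downstream gene in 627 (80.8%), and both held for 505 (65.1%, interval 61.7 to 68.3%). Each distance was to the nearest of the gene's annotated transcripts, and the like shares of other chains are not given here. Readthrough chains had a median of 11 exons and 2948.5 bases, beside 10 exons and 2697 bases for the other 72388 NIC and NNC chains. Of readthrough chains 57.0% were NIC alone, beside 45.5% of the others, so the splice sites of most were all annotated. The authors had assigned 264 chains to the upstream gene (34.0%), 385 to the downstream gene (49.6%) and 127 to another gene (16.4%). A sum over a gene's models thus places most of these chains with 1 of the 2 joined genes, more often the downstream one.

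Of the 776 chains 79 were found in both libraries (10.2%, interval 8.25 to 12.5%), beside 11795 of the other 72388 (16.3%, 16.0 to 16.6%). The share depended on reads. Of readthrough chains with 1 read in replicate 1, 40 of 400 were found in replicate 2 (10.0%, interval 7.43 to 13.3%), beside 13.6% of the other chains. With 2 to 4 reads it was 29 of 54 (53.7%, 40.6 to 66.3%), beside 52.7%, and with 5 or more it was 10 of 10 (lower bound 72.2%), beside 93.8%. By pair, 135 of 442 were seen in both libraries (30.5%, interval 26.4 to 35.0%), 45 with 2 or more reads in each and 14 with 5 or more in each. The intervals of the readthrough chains hold the values of the other chains at 2 to 4 and at 5 or more reads, and not at 1 read.

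**Figure D5:**
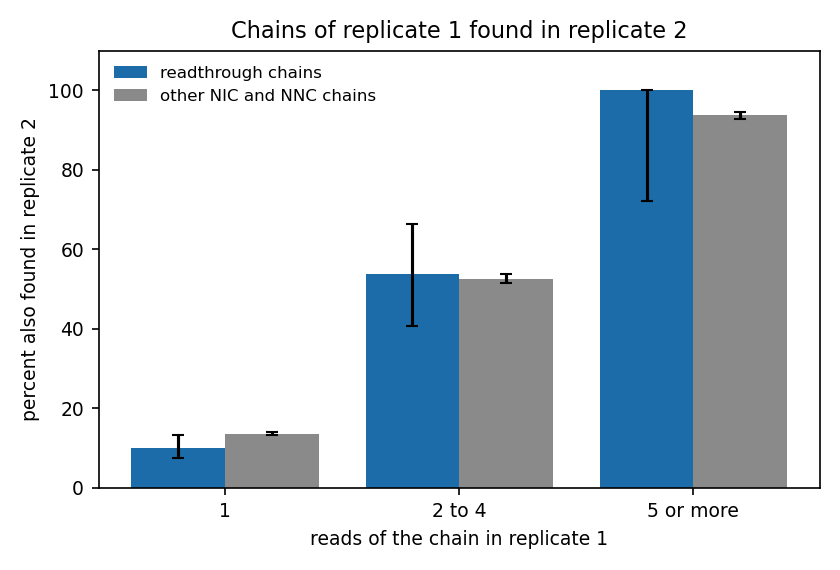
Percent of chains of replicate 1 that were also found in replicate 2, by the chain's reads in replicate 1, for readthrough chains (blue) and other NIC and NNC chains (grey), with Wilson 95% intervals. The bars are 10.0% and 13.6% at 1 read, 53.7% and 52.7% at 2 to 4 reads, and 10 of 10 chains and 93.8% at 5 or more.

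No readthrough chain and no pair passed a test of the difference between the libraries. Of 13954 spliced chains with 10 or more reads, 54 differed between libraries (0.387%, exact binomial test with Benjamini-Hochberg adjustment), and of the 7 readthrough chains among them 0 did. At an unadjusted p under 0.05 there were 1033 of all chains and 1 of the 7. That one, of Soga3-9330159F19Rik, had 13 reads in replicate 1 and 2 in replicate 2, a log2 ratio of 1.92 on reads with a pseudocount of 0.5 (adjusted exact binomial p = 0.595). This count is of the chain under every class label: 7 readthrough chains carried the class ISM, an incomplete match to an annotated transcript, in one library, which adds 24 reads outside the readthrough totals. Among the 20 pairs with 10 or more reads, 0 differed in the readthrough share of the upstream gene's reads by Fisher's exact test, adjusted or at an unadjusted p under 0.05 (0% called). Other upstream reads were 0 and 0 for Gm3252-Gm3264 and 1 and 0 for Gm28374-Tm7sf2, so the test could not call these pairs. The smallest p was 0.0638, for Ube2m-Chmp2a, whose share was 1.32% in replicate 1 and 3.66% in replicate 2.

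Of 45 mouse counterparts of gene pairs annotated as readthrough loci in human, 38 could be members here. Gene bodies overlapped in 5, 1 symbol was not in the annotation and 1 pair is not on a shared strand. Readthrough chains joined 10 of the 38, of which 7 had 2 or more reads in all. Beside them, 243 of the 6608 expressed neighbours were joined (3.68%), a set not matched to the list for distance or reads. Coro7-Pam16, which couples a Golgi coronin to a subunit of the mitochondrial import motor, had 2 and 4 reads, of which 2 and 3 lay on chains whose Pam16 exon sequence recurs in Gm9803. Tmem189-Ube2v1, a plasmalogen desaturase and a partner of the ubiquitin enzyme Ubc13, had 1 and 2, joined in frame from coding exon to coding exon. Synj2bp-Cox16, 2 genes for mitochondrial proteins, had 1 and 2, beside 16 and 11 reads on annotated transcripts that span the pair. Rab4b-Egln2, an endosomal GTPase and an oxygen-sensing prolyl hydroxylase, had 2 and 1. Palm2-Akap2 had 1 read in each library. Annotated spanning transcripts of Palm2-Akap2 and of Tnfsf12-Tnfsf13 had 1 and 0 reads. Apart from Synj2bp-Cox16, Palm2-Akap2 and Tnfsf12-Tnfsf13, the listed pairs that could be members had 0 such reads. Every chain of Tmem189-Ube2v1, Synj2bp-Cox16, Palm2-Akap2, Rbm14-Rbm4 and Tnfsf12-Tnfsf13 overlapped an annotated coding gene over both genes. The RNA-binding pair Rbm14-Rbm4 and the cytokine pair Tnfsf12-Tnfsf13, for TWEAK and APRIL, had 2 reads each in replicate 2 and 0 in replicate 1, which allows up to 3. The other 28 pairs had 0 reads in both libraries on NIC and NNC chains and on annotated transcripts that span the pair, among them Nme1-Nme2, Rps10-Nudt3 and Bcl2l2-Pabpn1, which were named after their values were seen. A count of 0 allows up to 3 reads per library.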

How the data were processed

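For each library the authors deposited whole-number counts of reads on transcript models, not normalized, and the exon coordinates of those models on mm10. Per the file headers, the authors used mm10 and GENCODE M21, and the source field of their models names TALON; the aligner is not given in the sources used here. Other deposited columns, such as model names and classes, are labels. Spike-ins were left out of totals, and SIRV models were not analysed here.

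The members and gene lists were chosen with earlier results of these data known. Gene bodies and exons are those of annotated (Known) transcripts of protein-coding genes. Each chain went to the pair of non-overlapping same-strand genes whose smaller exon overlap was greatest, and upstream is the gene nearer the 5′ end. Other reads of a gene are all reads the authors gave it, less its readthrough chains. Coding frames and sequences came from GENCODE M21 (mm10); no genome sequence was used, so intron dinucleotides were not read.

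Named pairs are the 12 with the most reads; the 5 highest readthrough shares of the upstream gene among pairs with 5 or more reads in each library; the 3 longest and 3 shortest distances among pairs with 2 or more reads in each; and listed human readthrough pairs with 2 or more reads. Libraries were compared by exact binomial and Fisher's exact tests, two-sided, with Benjamini-Hochberg adjustment, checked on simulated data. Shares have Wilson 95% intervals. Duplicate reads were not removed here, so intervals and the floor of 3 reads cover counting error only. Alternatives were other overlap rules, gene bodies, read minimums, denominators and single libraries, with 3 added after the data were seen. Python 3.11.15, scipy 1.17.1, statsmodels 0.14.6, numpy 2.4.6 and matplotlib 3.10.9 were used, and edgeR 4.0.16 for the TMM factors alone (0.948 and 1.06).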

Additional observations from a re-analysis of the deposited data

Results flagged for a closer look

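The models described above are those of the classes NIC and NNC, and models of other classes also overlapped exons of 2 non-overlapping coding genes, above the 3 reads that a count of 0 allows. Known transcripts of this kind had 200 reads in replicate 1 and 128 in replicate 2. Models of class ISM had 64 and 70 reads. Models of class Genomic had 70 and 28 reads.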

How the results depend on the processing

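The 776 chains became 119 at 2 or more reads and 391 to 464 in a single library. The 442 pairs became 89 at 2 or more reads, 229 with gene bodies from the authors' gene rows, which their joined models extend, and 263 to 314 in a single library. The readthrough share of mouse reads in replicates 1 and 2 was 0.0546% and 0.0604% with a splice site shared with each gene, 0.0554% and 0.0595% with gene rows, 0.0288% and 0.0281% at 2 or more reads, 0.0484% and 0.0524% without bridged chains and 0.0485% and 0.0544% without recurring sequence; without same-family neighbours it was 0.0576% in replicate 1. The log2 ratio of the libraries, -0.11 above, was 0.0345 at 2 or more reads (Fisher's exact p = 0.824). Chains found in both libraries were 6.06% at 2 reads in one and 1 in the other, 12.9% with gene rows and 66.4% at 2 or more reads. Chains that differed between libraries numbered 54 and, with TMM-scaled totals, 249; the cause was not tested. The median gap was 4020.0 bases at 2 or more reads, 5116.5 without recurring sequence and 5497.0 to 6053.5 in a single library; the joining intron itself had a median of 17287.0 bases. The last-but-one to second exon share was 43.8% with a shared splice site, 45.8% at 2 or more reads and 23.2% with the most-read transcripts. Of 23 named pairs, 14 had 0 reads with gene rows, 10 without bridged chains, 5 at 2 or more reads, 4 without same-family neighbours, 4 without recurring sequence, 2 without replicate 2, and 1 each with 50 bases of overlap (Armcx5-Bhlhb9) and a shared splice site (Gm28374-Tm7sf2). Reads of others changed by over 1.5 times for 7 at 2 or more reads, 1 with a shared splice site, 1 without recurring sequence (Coro7-Pam16, 1 read of 6), and 16 to 17 in a single library. Bridged chains, recurring sequence and most-read transcripts were chosen after seeing the data. No paired analysis was possible because there is 1 group. Depth limits chains of 1 read.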
